A study of Sus scrofa with 6 samples.

Results

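The stretches described here are the CpG-dense windows of a 2.1 Mb interval of pig chromosome 9, outside the block that covers the starts of SGCE and PEG10. The interval runs from position 73250031 to 75349903 of the build Sscrofa11.1 and was cut into fixed windows of 500 bp. A window was taken as dense when it held at least 15 CpGs, and a block of 11 windows around the starts of SGCE (74473904) and PEG10 (74474121), 5 of them dense, was left out. The density limit used the number of CpG positions and not their methylation. The block was left out by position, with earlier results of these data known, and 6 of its windows were called between the groups by edgeR. Counts of called or intermediate windows given below for the dense windows do not cover it. The choice gave 117 windows with 2459 CpGs, or 17.4% of the 14116 CpGs listed for the interval. Of these, 2119 CpGs had at least 5 reads in every embryo and are the members, and they lie in 113 windows. The other 340 CpGs were too shallow in at least 1 embryo.

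Methylation was read by whole-genome bisulfite sequencing in 6 whole embryos of a Landrace x Yorkshire x Duroc cross, all at embryonic day 21. The 3 embryos of the control group are labelled as untreated. The 3 parthenotes grew from oocytes activated by electric pulses, without sperm, after transfer into the oviducts of 2 surrogate gilts, and therefore carry maternal genomes only. The labels do not tell how the controls were conceived or whether embryos of a group share a litter, so the spread between embryos may not be that between independent litters.

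In mammalian DNA most CpGs are methylated, and methylated cytosines are lost over evolutionary time by deamination, so CpGs are scarce over most of the genome. They stay clustered in CpG islands, which often cover the starts of widely expressed genes and are then free of methylation. A CpG-dense stretch away from a gene start can be methylated or not. A stretch that is methylated on the copy from 1 parent reads near the middle of the scale in an embryo with both parental genomes, and near an end of the scale in a parthenote.

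The tables hold 380163 to 406443 C-or-T reads per embryo. The median depth at member CpGs was 18 to 22 reads, against 29 to 31 reads at the other CpGs outside the left-out stretch. Control 1 had a lower methylation level than the 5 other embryos over most of the interval, and it was the lowest embryo in 71.5% of all 1894 windows tested. Values without control 1 are given where it sets a difference.

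Methylation of the dense windows fell at the ends of the scale. A window level is the share of methylated reads over its members, and 95 of the 113 windows had a mean above 80% in both groups, while 17 had a mean under 20% in both. The remaining window, upstream of COL1A2, lay at the lower limit. Outside the left-out stretch, no dense window had both group means between 20% and 80%. Position split the windows further. At gene starts, meaning windows in which the authors assigned at least 1 CpG to a promoter, 9 of 10 windows with members were low, 1 was the COL1A2 window and 0 were high. Inside genes, 7 of 62 were low and 55 were high. Between genes, 1 of 41 was low and 40 were high. The windows at gene starts also held more CpGs, with a median of 25 per window against 19 inside genes and 18 between genes.

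**Figure D1:**
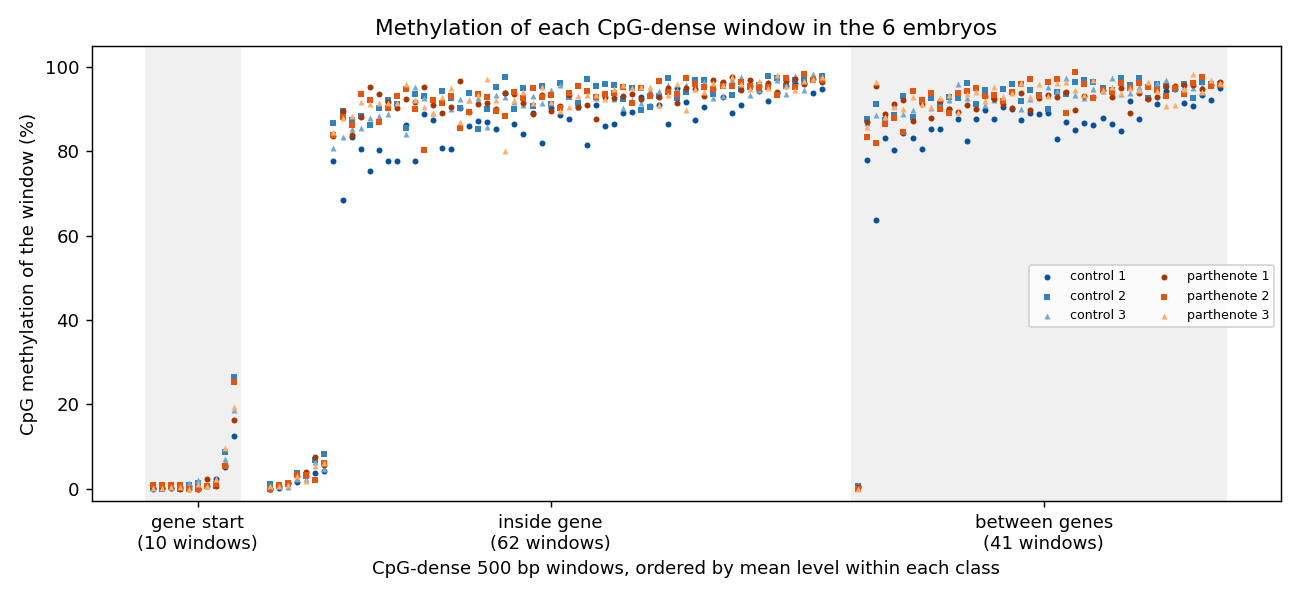
Methylation level in percent (vertical axis) of the 113 CpG-dense windows with members, 1 column of 6 points per window, ordered by mean level within each position class (horizontal axis). Blue points are the 3 controls, orange points the 3 parthenotes. The windows at gene starts lie under 27%, most windows elsewhere lie above 80%, and control 1 (dark blue circles) forms the lower edge of the high windows.

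Mean levels over the member CpGs show the size of this split in each embryo. The 209 members at gene starts averaged 1.33%, 1.59% and 1.73% in controls 1 to 3 and 1.39%, 1.57% and 1.94% in parthenotes 1 to 3. The 1910 members elsewhere averaged 78.8%, 84.1% and 83.4% in the controls and 83.2%, 83.8% and 83.9% in the parthenotes. The level at gene starts was thus lower in every embryo, by 81.3 percentage points on average (± 1.89, SD, n = 6; lower in 6 of 6 embryos; 2-sided exact sign-flip permutation test, p = 0.0313, the smallest that 6 embryos allow). Benjamini-Hochberg adjustment over the 2 tests of this kind left p at 0.0313. At gene starts the groups overlapped, with 1.55 ± 0.20% in controls and 1.63 ± 0.28% in parthenotes (SD, n = 3 each).

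Gene annotation separated the members in the same way. The 140 members in 5′ untranslated exons averaged 0.88 ± 0.10% in controls and 0.87 ± 0.13% in parthenotes (SD, n = 3 each). The 58 members annotated as upstream of a gene averaged 3.96 ± 0.53% and 4.57 ± 1.09%. Exonic members were split between low and high windows. In 6 low windows 86 exonic CpGs averaged 1.04% over the 6 embryos, and in 6 high windows 160 exonic CpGs averaged 95.5%. The 967 intronic members lay mostly in high windows, where 865 of them averaged 91.6%, while the 102 in low windows averaged 2.33%.

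Of the 17 genes of the interval whose strand the tables give, 8 have a dense window at the promoter: CALCR, GNGT1, BET1, COL1A2, CASD1, PPP1R9A, PON2 and PDK4. SGCE and PEG10 start inside the left-out stretch. MIR489, TFPI2, GNG11, LOC100738575, PON1, PON3 and ASB4 have no dense promoter window. For GNG11 the nearest dense window begins 173 bp downstream of the annotated start and is low. For PON1, PON3 and ASB4 the nearest dense windows are 3721, 8053 and 14868 bp from the start and are methylated, at means of 82.9%, 94.2% and 92.2%.

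CALCR, the receptor for the hormone calcitonin, and GNGT1, the gamma subunit of the G protein of rod photoreceptors, are transcribed in opposite directions from starts at 73403516 and 73403647, and share 3 dense windows. In the window at 73403500 to 73403999, over both starts, the 3 controls read 0%, 1.43% and 2.13%, and the 3 parthenotes 0%, 0% and 1.15%. That window kept only 8 of its 29 CpGs and 47 to 104 reads per embryo, so a count of 0 allows up to 5.17%. The window before it averaged 1.44% over the 6 embryos and the window after it 0.84%. Counting adjoining windows that were not dense, the low stretch spans 1916 bp and 62 covered CpGs, at 2.02 ± 0.32% in controls and 1.98 ± 0.64% in parthenotes (SD, n = 3 each). Its flanks rose to 54.5% and 72.9% in the controls within the next 500 bp window on each side.

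BET1, a SNARE protein of transport from the endoplasmic reticulum to the Golgi, had 28 CpGs in its start window at 73792500, all of them members. The levels were 0%, 0.23% and 0.64% in the controls and 0.13%, 0.84% and 0.20% in the parthenotes. CASD1, which acetylates sialic acids, had the most CpGs in its low stretch, with 3 adjoining dense windows from 74276500 to 74277999. The first, over the start, read 0.19%, 0% and 0.71% in the controls and 0.21%, 0.78% and 0.15% in the parthenotes. The next, with 55 CpGs, averaged 0.56% over the embryos, and the one after it 2.76%. Groups overlapped in all 4 windows of these 2 genes.

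PON2, an intracellular lactonase of the paraoxonase family, had 48 CpGs in its start window at 75051000. Its levels were 0.18%, 0.58% and 0.45% in the controls and 0.13%, 0.78% and 0.29% in the parthenotes. The adjoining window at 75050500, in the first part of the gene, was higher, at 5.69 ± 2.16% and 5.93 ± 0.23% (SD, n = 3 each). Its outermost CpG, at 75050523, averaged 37.1% over the 6 embryos, so this window includes the edge of the unmethylated stretch.

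PPP1R9A encodes neurabin, an actin-binding protein that recruits a protein phosphatase. The first of its 3 dense windows, at 74635000, read 5.0%, 8.67% and 6.90% in the controls and 5.62%, 5.33% and 9.61% in the parthenotes. Here too an edge CpG, at 74635038, stood above the rest, at 44.5%. The third window, at 74636000, averaged 0.27%, the lowest of the 113 windows, with 4 embryos at 0 (up to 2.17% allowed by a count of 0). The window between them, at 74635500, held 71 CpGs, more than any other dense window and more than the 38 of the densest window in the left-out stretch, and has no member because its depth was 3.35 to 6.04 reads per CpG. Over all its reads it had 0%, 0% and 0.38% in the controls and 0.23%, 0.73% and 1.11% in the parthenotes, with 95% Wilson intervals reaching at most 2.83%. Reads of neighbouring CpGs can be the same molecule, and these intervals cover counting error only.

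COL1A2 encodes a chain of type I collagen. Its start window at 74174000 was unmethylated, at 0.45%, 0% and 0.80% in the controls and 0%, 0.76% and 0.41% in the parthenotes. The window upstream, at 74173500, was the only one classed neither low nor high, with group means just under and just over 20%, at 12.4%, 26.4% and 18.7% in the controls and 16.3%, 25.4% and 19.4% in the parthenotes. It was not intermediate throughout. The 3 CpGs farthest from the gene, at 74173548, 74173650 and 74173667, averaged 56.2%, 43.9% and 41.3% over the embryos, and each of the other 10 averaged at most 3.03%. The window level therefore depended on which CpGs were counted. It was 47.9% with at least 10 reads required, which kept 3 CpGs, and 11.6% as a mean over CpGs. Of its 13 members, 9 had a strand without a call or opposite-strand A reads in at least 1 embryo, which is the sign of a sequence variant used here. These 9 had 5 to 14 reads per embryo, and the sign does not tell a variant from a strand that no read covered.

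PDK4, the kinase that inhibits pyruvate dehydrogenase in fasting, starts at 75260134 inside a stretch that the tables annotate as an intron of ASB4. Its start window at 75260000 read 0.54%, 0.79% and 1.28% in the controls and 0% in each parthenote. The groups did not overlap, but the parthenotes had few enough reads that a count of 0 allows up to 2.11%, above every control. edgeR's unadjusted p was 0.0163 and its adjusted p 0.995. Windows in which every parthenote lay below every control made up 0.422% of all windows tested. Of the 112 dense windows tested there were 2, a larger share.

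Of the 17 low dense windows, 14 lay within 1000 bp of an annotated gene start and 3 did not. The windows at 73688000 and 73688500 cover exons and introns of TFPI2, a serine protease inhibitor of the extracellular matrix. They lie 6164 and 5664 bp inside the gene from its annotated start at 73694663. The window at 73688500 read 1.32%, 1.12% and 0.26% in the controls and 1.24%, 1.40% and 0.93% in the parthenotes. The low stretch spans 1128 bp and 50 covered CpGs, between flanks at 82.3% and 93.1% in the controls.

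The last of these 3 windows lies between genes, 8719 bp beyond the end of ASB4. Its 20 CpGs stand within 111 bp, from 75346338 to 75346448, and 13 of the steps between neighbours are 2 bp, against at most 10 in any other low window and at most 5 in any high one. The levels were 0.69%, 0.57% and 0.87% in the controls and 0.42%, 0% and 0% in the parthenotes, with 291 to 509 reads per embryo. The parthenotes lay below the controls, and counts of 0 allow up to 0.85%. The reads are summed over CpGs this close together, so many can be the same molecule and that limit may be too low. Windows on both sides averaged 70.3% and 81.0% in the controls. This window had an adjusted p of 0.995 in edgeR.

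The level of the dense CpGs differed with the distance from the annotated starts. From the start to 500 bp downstream, 160 dense members averaged 0.80 ± 0.12% in controls and 0.64 ± 0.20% in parthenotes (SD, n = 3 each), and 89 members at 500 to 1000 bp averaged 2.11 ± 0.78% and 2.15 ± 0.23%. Upstream within 500 bp, 60 members averaged 1.68 ± 0.44% and 1.67 ± 0.50%. At 500 to 1000 bp upstream, 9 members of 1 window averaged 15.3 ± 4.14% and 18.3 ± 3.70%. From 1000 to 2000 bp upstream there was no dense CpG, and from 2000 to 5000 bp upstream 62 members averaged 94.2 ± 1.58% and 93.3 ± 1.74%. Those 62 lie in 4 windows upstream of MIR489, LOC100738575 and PPP1R9A, of which only PPP1R9A has a dense promoter window. The bins thus hold different genes. At the same distances, CpGs of windows that were not dense had higher levels near the start: 68 of them within 500 bp downstream averaged 33.4 ± 3.62% and 34.9 ± 2.33%.

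**Figure D2:**
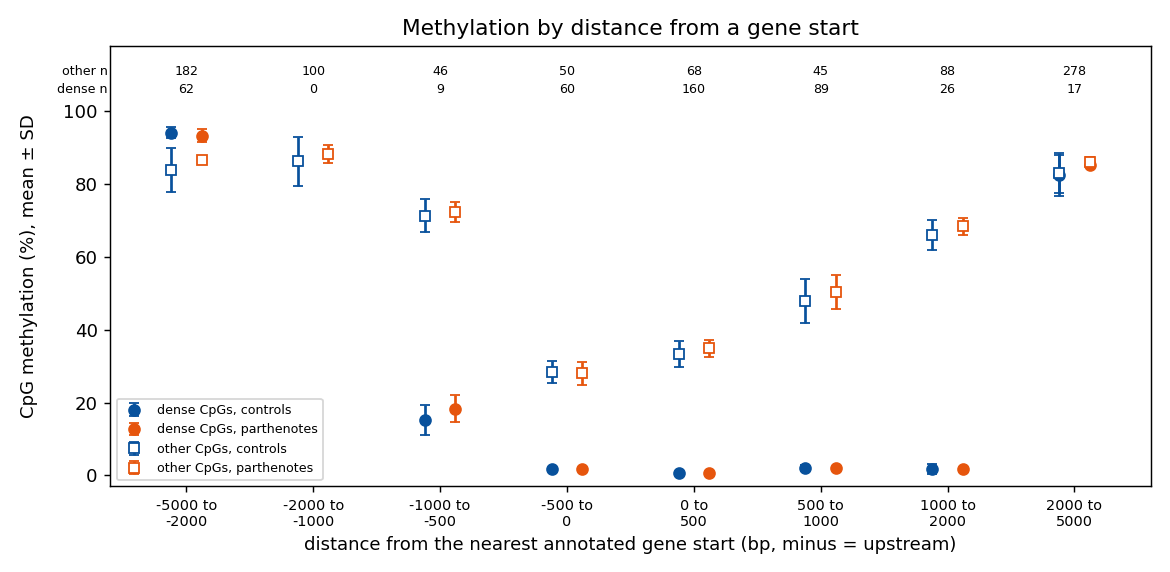
Mean methylation in percent (vertical axis) by distance in bp from the nearest annotated gene start (horizontal axis, minus is upstream) for CpGs of dense windows (filled circles) and other windows (open squares), as the mean and SD of 3 controls (blue) and 3 parthenotes (orange). Numbers along the top are CpGs, and CpGs farther than 5000 bp are not shown. Group means of dense CpGs stay under 3% from 500 bp upstream to 2000 bp downstream, where other CpGs range from 28.0% to 68.4%.

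The 95 high windows were all more than 1000 bp from an annotated gene start. Their 1713 members averaged 87.7%, 93.5% and 92.8% in the controls and 92.6%, 93.3% and 93.4% in the parthenotes. Inside genes they were spread over GNGT1 (16 windows), PPP1R9A (15), ASB4 (8), CASD1 (4), PEG10 (4), CALCR (3), PON1 (3), PON2 (1) and PON3 (1). Few adjoined each other. The 117 dense windows form 103 separate runs, of which 94 are a single window, and the longest run is the 4 windows in PEG10.

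PEG10, which derives from a retrotransposon and is active on the father's copy, has its start in the left-out stretch, while its exon from 74481000 to 74482999 carries these 4 dense windows with 136 CpGs. The window at 74482500 was the most methylated of all the dense windows, at 94.9%, 97.8% and 97.0% in the controls and 96.5%, 96.9% and 97.6% in the parthenotes. The window at 74481500 followed, at 93.7%, 97.0% and 98.3% against 97.2%, 96.9% and 97.1%. The groups overlapped in all 4 windows. The other windows among the 5 highest averaged 96.5% (74295500, an intron of CASD1), 96.4% (75308000, an intron of ASB4) and 95.9% (74349500, past the end of CASD1). The lowest of the high windows, at 74970500 in an intron of PON1, a serum lactonase bound to lipoproteins, averaged 82.9%. It holds a CpG at 74970586 that averaged 26.8%, and was low in every embryo (10.0% to 42.9%).

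Away from gene starts the level rose with the number of CpGs up to the class of 15 to 19 and was lower in the densest class. The windows counted were all those outside the left-out stretch and more than 1000 bp from a start. With 1 to 2 CpGs the level was 80.2 ± 7.11% in controls and 84.2 ± 1.35% in parthenotes (SD, n = 3 each, here and below). With 10 to 14 CpGs it was 86.9 ± 4.01% and 88.5 ± 1.25%, and with 15 to 19 CpGs 89.5 ± 3.06% and 91.5 ± 0.30%. With 20 to 37 CpGs it was 86.5 ± 3.00% and 88.0 ± 0.62%. The 3 low dense windows away from starts lie in these last classes, 1 in the first of them and 2 in the densest. Without these 3, the class of 15 to 19 CpGs read 90.9% in controls and 92.8% in parthenotes, and the densest class 91.9% and 93.4%. The 3 are set aside for their level, so that description carries no test. Control 1 stood 11.4 points below the median of the other embryos in the sparsest class and 5.29 points below it in the densest. Depth fell along the same axis, from a median of 32 reads per CpG to 21, and its part in the trend was not tested.

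**Figure D3:**
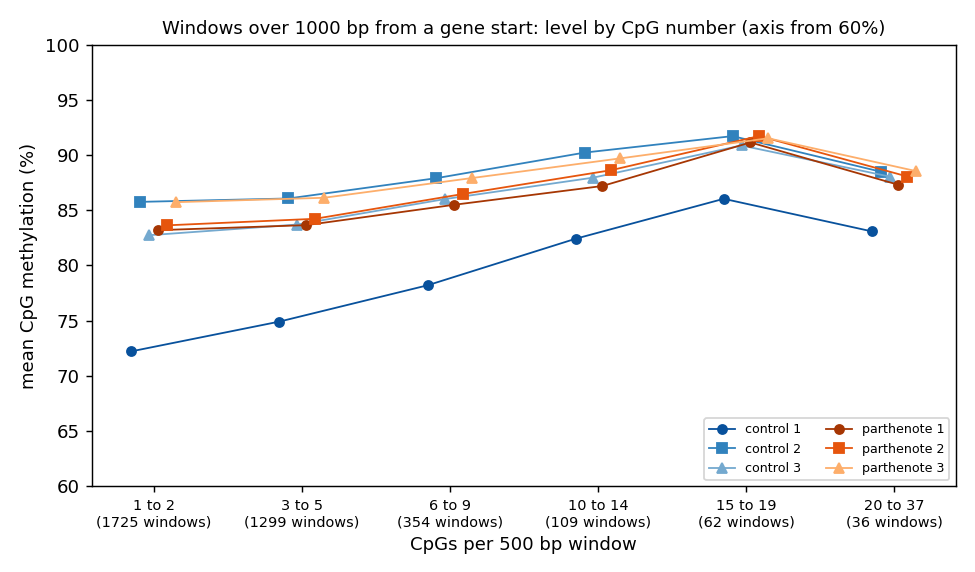
Mean methylation in percent (vertical axis, from 60%) by the number of CpGs per 500 bp window (horizontal axis). Windows are all those outside the left-out stretch and more than 1000 bp from an annotated gene start, the 3 low dense windows included. Each line is an embryo, with controls in blue and parthenotes in orange. Control 1 lies below the other 5 embryos in each class, from 72.2% against at least 82.7% in the sparsest to 83.1% against at least 87.3% in the densest.

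Set against the 11151 other CpGs, the dense members as a whole were less methylated. They averaged 71.2%, 75.9% and 75.3% in the controls and 75.2%, 75.7% and 75.8% in the parthenotes. The other CpGs averaged 75.1%, 86.1% and 83.7% and then 83.5%, 84.2% and 86.0%. The difference was -8.24 ± 2.28 points (SD, n = 6; lower in 6 of 6 embryos; 2-sided exact sign-flip permutation test, p = 0.0313 before and after adjustment over the 2 tests). It was -19.4 points with density from 20 CpGs and -3.97 from summed reads. With at least 10 reads required it was -2.68 points (exact sign-flip permutation p = 0.0625, n = 6). This p is above the 0.0313 that 6 embryos of the same direction give, so not every embryo was lower. The difference turned around when windows within 1000 bp of a gene start were left out of both sides, a comparison chosen after the data had been seen. The dense members then averaged 5.14 ± 2.01 points more than the others, in 6 of 6 embryos.

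The limit of 15 CpGs did not fall at a step in the data. The 16 covered windows with 14 CpGs, just outside the rule, averaged 77.4 ± 2.27% in controls and 78.2 ± 1.10% in parthenotes, with 2 low and 13 high windows. The 15 covered windows with 15 CpGs averaged 77.7 ± 3.09% and 80.5 ± 0.48%, also with 2 low and 13 high (SD, n = 3 each).

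Between controls and parthenotes no dense window outside the left-out stretch passed the test. edgeR's quasi-likelihood test, fitted over all 1894 windows with at least 3 covered CpGs, called 0 of the 112 dense windows tested at an adjusted p under 0.05, and 7 of them had an unadjusted p under 0.05. Over all windows 0.37% were called higher in parthenotes and 0.0% lower. An unadjusted edgeR p under 0.05 was found in 2.48% of all windows, a smaller share than the 7 of 112 dense windows. The shares over all windows include the left-out stretch, with 6 of the called windows. limma and DESeq2 also called 0 dense windows, while Fisher's exact test on the summed reads of each group, which ignores the spread between embryos, called 22. Every parthenote lay above every control in 8 of the 112 dense windows tested, all of them high, against 6.44% of all windows. The median difference of the dense windows was 1.16 points, with 86 higher and 26 lower in parthenotes, against a median of 2.35 points over all windows. Over all members the parthenotes were 1.43 points higher, and 0.06 points lower without control 1 (a difference of -0.06).

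**Figure D4:**
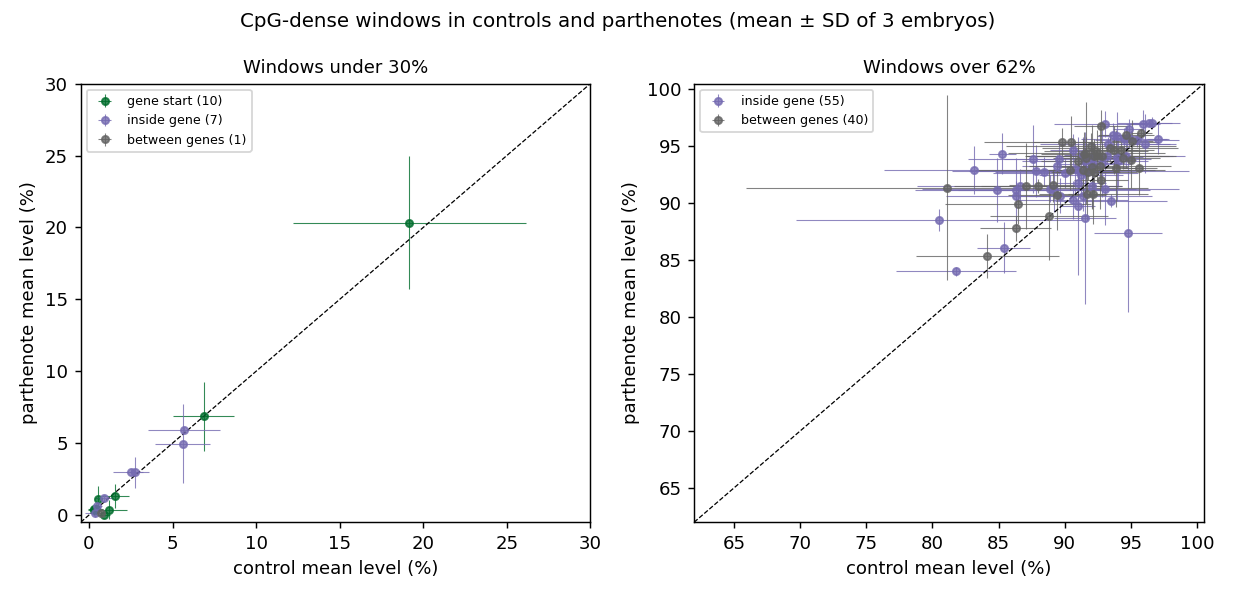
Mean level in percent of each dense window in the 3 controls (horizontal axis) and the 3 parthenotes (vertical axis), with bars of 1 SD and the line of equal levels. The left panel holds the 18 windows under 30%, the right panel the 95 over 62%, coloured by position class. Points lie along the line in both panels, and the widest bars among the high windows are those of the controls.

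The windows with the largest differences were all in the high class. At 74139500, between BET1 and COL1A2, the difference was 10.2 points (63.6%, 91.1% and 88.6% in the controls, 95.6%, 82.0% and 96.5% in the parthenotes), and 1.51 points without control 1. Only 3 of its 15 CpGs were members. Its first 12 CpGs, from 74139505 to 74139603, had 0 to 6 reads in the controls, 0 to 2 in parthenote 1, and 16 to 31 in parthenotes 2 and 3. The window just before it, from 74139000 to 74139499, has 13 CpGs and so is not dense. There 3 covered CpGs averaged 75.2 ± 5.61% in controls and 96.4 ± 3.47% in parthenotes (SD, n = 3 each), with an adjusted p of 0.0208 in edgeR. It was the only window called outside the left-out stretch.

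At 75233000, in an intron of ASB4, the controls read 75.3%, 86.2% and 87.9% and the parthenotes 95.3%, 92.2% and 91.2%. The groups did not overlap, and the difference of 9.80 points became 5.61 without the CpGs that carry a variant sign (defined above for COL1A2) and 5.90 without control 1. At 73499000, in an intron of GNGT1, the controls read 86.2%, 85.5% and 84.2% and the parthenotes 92.3%, 94.9% and 95.9%. This difference of 9.08 points, 5.10 without such CpGs, had the smallest adjusted p of the dense windows, 0.840 in edgeR. At 73441000, also in GNGT1, the 8.05 points came largely from control 1, at 68.5%, and were 2.07 without it. At 73451500 in GNGT1, the controls read 80.6%, 88.5% and 85.5% and the parthenotes 88.2%, 93.7% and 91.6%. The groups overlapped. The difference of 6.33 points was 4.20 without control 1 and 4.16 with at least 10 reads required, a limit that drops the called CpG at 73451963, which lies in this window. At 74310500, in an intron of CASD1, the difference was -7.39 points, the largest in the other direction. It rests on 2 members and 10 to 48 reads per embryo, was not tested, and was 1.02 points without parthenote 3.

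A few single CpGs differed between the groups. Over all 13401 covered CpGs, edgeR called 0.478% higher in parthenotes and 0.0% lower. These CpGs include the left-out stretch, which holds no member, so their shares are not those of the CpGs outside it. Among the 2119 members edgeR called 5, all higher. It called 8 members without control 1, and 3 without control 2, control 3, parthenote 2 or parthenote 3. At an unadjusted p under 0.05 it had 46 members, or 2.17%, against 3.63% of all CpGs. All 5 lay in high windows and 4 carried a variant sign. The largest difference was at 73566701, in an intron of GNGT1, with 0% in every control and 100%, 95.8% and 100% in the parthenotes (edgeR adjusted p = 1.86e-07). On the plus strand this CpG had no call in any control, while its minus-strand cytosine had 11 to 27 reads there, none methylated. Plus-strand reads did reach the adjoining base in the controls, with 13, 19 and 20 reads, all G. At the plus-strand C position no control had a C-or-T read or an opposite-strand read with G or A. Whether the sequence of this CpG differs between the groups was not tested.

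At 73451963, in the same gene, the controls read 25.0%, 0% and 0% and the parthenotes 81.2%, 100% and 88.2% (edgeR adjusted p = 0.00131). It carried no variant sign by the rule used, but its reads were uneven. The minus-strand cytosine had 7, 2 and 3 reads in the controls against 25, 28 and 27 in the parthenotes, and no plus-strand read with G or A covered it in any control. Reads of both strands did cover the adjoining plus-strand C in the controls. It had 5, 7 and 4 C-or-T reads, and 14, 19 and 20 opposite-strand reads, all with G. Whether the sequence itself differs there between the groups was not tested, and the rule for a variant sign would not mark such a site. At 73499418 the controls read 88.9%, 4.17% and 26.7% and the parthenotes 95.5%, 100% and 96.6% (edgeR adjusted p = 0.00692). In controls 2 and 3, 95.0% and 64.3% of the opposite-strand reads there carried A, the base a C-to-T variant leaves on that strand, against 0% in control 1 and the parthenotes.

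The 2 other called members were named after their values had been seen. At 74053699, between BET1 and COL1A2, the controls read 48.1%, 50% and 54.5% and the parthenotes 100%, 100% and 97.4%. Opposite-strand reads carried A in 61.5%, 44.4% and 33.3% of cases in the controls and in 0% in each parthenote. Every control thus had A reads beside its intermediate level, and no parthenote did. At 73566801 the controls read 90.5%, 0% and 40% and each parthenote 100%. With CpGs of a variant sign left out, 2 members were called, of which 1 is 73451963 with its uneven strand reads.

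CpGs rarely departed from their window. In the 17 low windows, 389 of 393 members averaged under 20% over the embryos. The other 4, at 20% to 80%, lay at the edges of low stretches. Those in GNG11 (73721939), PPP1R9A (74635038) and PON2 (75050523) were the first or last covered CpG, and that in CASD1 (74277939) lay just before the last (74277972). In the high windows, 1654 of 1713 members averaged over 80% and 59 averaged 20% to 80%, of which 19 carried a variant sign. Only 6 averaged under 50%, and 4 of these carried that sign. At 75126777, in an intron of ASB4, control 1 and parthenote 2 read 0%, the other controls 38.9% and 59.0%, and the other parthenotes 96.7% and 90.0%. The neighbour at 75126931 also read 0% in control 1 and parthenote 2, with 54.5% and 50% in the other controls and 94.4% and 91.7% in the other parthenotes. Both of these CpGs carried a variant sign, and whether their sequence differs between embryos was not tested. Over all members 4.81% carried a variant sign, against 4.37% of the other CpGs.

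Depth limits these windows more than the rest of the interval. The median was 32 reads per CpG in windows with 1 to 2 CpGs and 14 in windows with 30 to 71. The share of CpGs with 5 reads in every embryo was 86.2% in dense windows and 97.1% elsewhere, and 60.1% in dense windows at gene starts. Of the 4 dense windows without a member, 1 is the PPP1R9A window at 74635500. The others, at 74915500, 75169500 and 75170500, had 0 to 7.61 reads per CpG and give no usable level. At 74310500, in CASD1, parthenote 3 had 3.11 reads per CpG where the other embryos had 12.6 to 25.9, so 2 of its 19 CpGs are members and it was not tested. The widest 95% Wilson interval of a low window was 10.7 points, in the CALCR and GNGT1 window, and the median over low windows of their widest interval was 3.25 points.

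**Figure D5:**
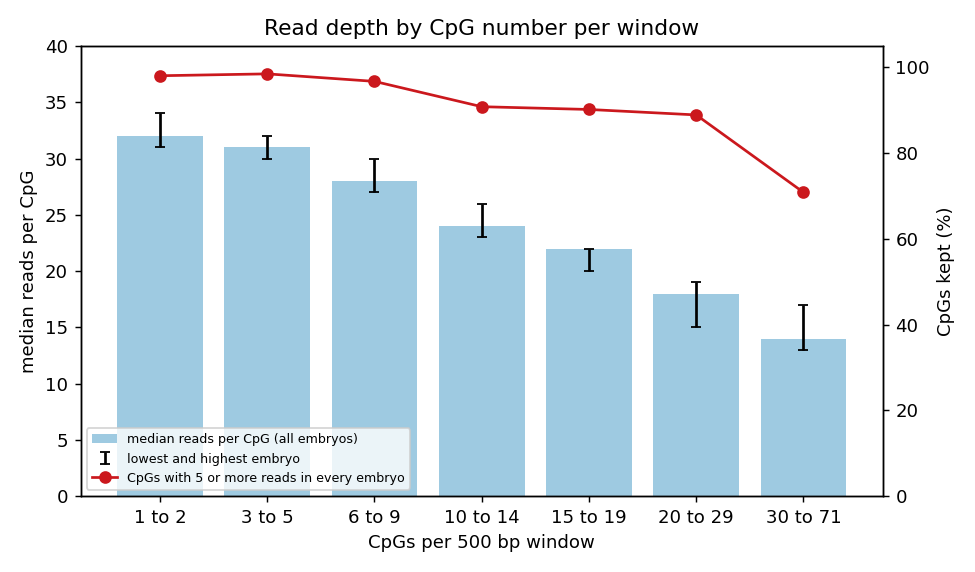
Median reads per CpG (bars, left axis, with lines to the lowest and highest embryo) and the share of CpGs with at least 5 reads in every embryo (red line, right axis, in percent) by the number of CpGs per 500 bp window (horizontal axis). The median falls from 32 to 14 reads and the share kept from 98.1% to 70.9%.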

How the data were processed

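CpG methylation was measured in 3 control embryos and 3 parthenotes. The submitters' processing notes name BSMAP 2.87 and the build Sscrofa11.1, and other mapping settings are not given in the sources used here. Per the file headers, the authors deposited for each CpG cytosine on each strand the count of reads with C and with C or T, the same for opposite-strand G and A, an expected count corrected for opposite-strand A, and a methylation fraction with its confidence interval. The C and C-or-T counts were used here as deposited, with both strands of a CpG summed. The deposited fraction was not used, and the expected count only as an alternative total.

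Windows began at multiples of 500 bp. A window level is methylated over total reads of its members, a class level the unweighted mean over CpGs. Group differences were tested with edgeR 4.0.16 in R 4.3.3 (quasi-likelihood, a coverage term per embryo) over every window with at least 3 CpGs of 5 or more reads in every embryo, and over every such CpG, with Benjamini-Hochberg adjustment over all of them. With 3 embryos a group, p-values set differences against the spread between these embryos. Limits for a count of 0 are 3 counts over the total reads, summed over CpGs. They take these reads as independent, though reads of neighbouring CpGs can be the same molecule. Gene starts came from RefSeq on the same build. A variant sign is 20% or more A at 10 or more opposite-strand reads, or a strand without a call, in any embryo. Alternatives were limma 3.58.1, DESeq2 1.42.0, Fisher's exact test, other read and CpG limits, a shifted grid, a replicate block and leaving out each embryo. Named windows are all those at gene starts and, elsewhere, the 5 lowest, the 5 highest and the 5 with the largest difference, over all windows and over those tested, and named CpGs the 3 called members with the largest difference. The members, lists and tests were chosen with earlier results of these data known. Others named were chosen after their values were seen. Tests were run on simulated counts first. Tables and plots were made in Python 3.11.15 (scipy 1.17.1, pandas 2.3.3, numpy 2.4.6, matplotlib 3.10.9).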

Additional observations from a re-analysis of the deposited data

How the results depend on the processing

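Of 129 recomputed summary values, 100 kept their side of the threshold and stayed within the spread or count limit. Of these 100, 7 changed sign: 5 of the gene-start difference between groups, and those over all members and away from starts without control 1. Dense windows called numbered 1 with density from 10 CpGs (the window before the largest difference) and 22 with Fisher's exact test. Member CpGs called numbered 3 with a minimum of 10 reads, 1 with density from 20 CpGs, 2 without variant signs, 2 with the grid shifted by 250 bp, 3 with limma, 22 with Fisher's exact test, and 3 to 8 with 1 embryo left out (8 without control 1). CpGs 73451963, 73566701 and 74053699 were called in each of those 6 fits, 73499418 in 2 and 73566801 in 1. With the authors' totals corrected for opposite-strand A, 5 members were called, but 74053699 was not among them. With a minimum of 10 reads 73451963 was not tested. Gene-start difference was -0.31 points from summed reads. Gene starts minus elsewhere ranged from -82.1 to -80.9 points with 1 embryo left out, where 5 embryos cannot give a p under 0.0625. Dense minus other CpGs ranged from -9.13 to -7.57 points in that case. With a minimum of 10 reads and all 6 embryos it was -2.68 (exact sign-flip permutation p = 0.0625), and not every embryo was lower. It was 5.14 over 1000 bp from gene starts and 8.30 there without low dense windows. Those windows are left out for their level and from 1 side only, so the rise is built in. The difference at 74310500 was 1.02 points without parthenote 3. Same-numbered controls and parthenotes had deviations correlated at -0.02, -0.11 and 0.18, and differently numbered ones at -0.21 to 0.18. Such correlations cannot tell whether embryos of 1 number share a litter or handling, and the embryos were treated as unpaired. With a replicate block 0 windows and 7 CpGs were called. Below about 10 reads per CpG, levels of the densest windows rest on few molecules.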
